A study of Mus musculus with 2 samples.

Results

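The 38 genes described here encode proteins that carry a cell through mitosis and cytokinesis. They were taken by name from a list, with no threshold on a measured value, although the list was drawn up with earlier results of these data known, and all 38 were found among the 43346 Ensembl genes of the deposited tables. By function they comprised 6 genes of the spindle checkpoint, 7 of the kinetochore, 6 of the spindle, 4 of the chromosomal passenger complex, 6 of condensin and chromosome structure, 2 of anaphase onset and 7 of cytokinesis. The study measured total RNA of embryonic hearts from mouse strain B6NCrl, a C57BL/6N substrain, at embryonic day 10.5, when the looped heart already beats and grows. It had 1 group, with no treatment and no second genotype, in 2 biological replicates: replicate 2 was a pool of hearts from 51 embryos and replicate 1 a pool from 69 embryos, each pool of both sexes. Each library used 10 ng of RNA longer than 200 nt, with ERCC spike-ins, which are synthetic RNAs added in known amounts. The libraries held 41070978 expected counts (replicate 2) and 45205713 (replicate 1). Differences are therefore given between genes within the tissue and between the pools, without p-values, and means carry the SD of the 2 pools (n = 2). The heart label was checked against 10 heart muscle genes, which were detected 10 of 10 and led by Actc1, the cardiac actin, with 11048 TPM in replicate 2 and 6437 TPM in replicate 1.

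In mitosis, duplicated chromosomes are condensed, captured by spindle microtubules through the kinetochores built on their centromeres, and pulled apart once the spindle checkpoint is satisfied; cytokinesis then splits the cell at the central spindle and contractile ring. Most of these genes are transcribed mainly in the G2 and M phases of the cycle, under the MuvB and B-Myb complexes and the factors FoxM1 and NF-Y, so their RNA is commonly read as a sign of proliferation. Embryonic heart muscle cells divide while they beat, and endocardial, cushion and epicardial cells divide beside them.

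All 38 genes were detected in both heart pools at 1 TPM or more, a threshold that 56.9% of 21461 nuclear protein-coding genes passed. TPM, a deposited unit, is a relative level scaled by transcript length, so it allows levels of different genes to be compared. Birc5 (survivin, of the passenger complex; ENSMUSG00000017716.11, mm10 chromosome 11, 117849251 to 117855743) had the highest mean, with 233 TPM in replicate 2 and 278 TPM in replicate 1. Cenpa (the centromeric histone H3 variant) had 241 TPM in replicate 2 and 264 TPM in replicate 1. Espl1 (separase, the protease that opens cohesin; ENSMUSG00000058290.3, chromosome 15, 102296266 to 102324357) had the lowest mean, with 18.9 TPM in replicate 2 and 18.6 TPM in replicate 1, although Cenpe was lower in replicate 2. Mean levels thus spanned 13.6-fold, and the expected counts behind each member in a pool lay between 1498 and 19653. Among the 12218 detected protein-coding genes, whose median was 19.6 TPM, the members had a median percentile of 85.9, with a range of 48.7 to 95.6. Of the members, 11 stood above the 90th percentile and 2, Birc5 and Cenpa, above the 95th. Together they took 0.402% (replicate 2) and 0.456% (replicate 1) of the TPM of protein-coding genes (0.429% ± 0.039, SD, n = 2). In whole hearts such a level does not separate fewer dividing cells from less RNA in each.

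**Figure D1:**
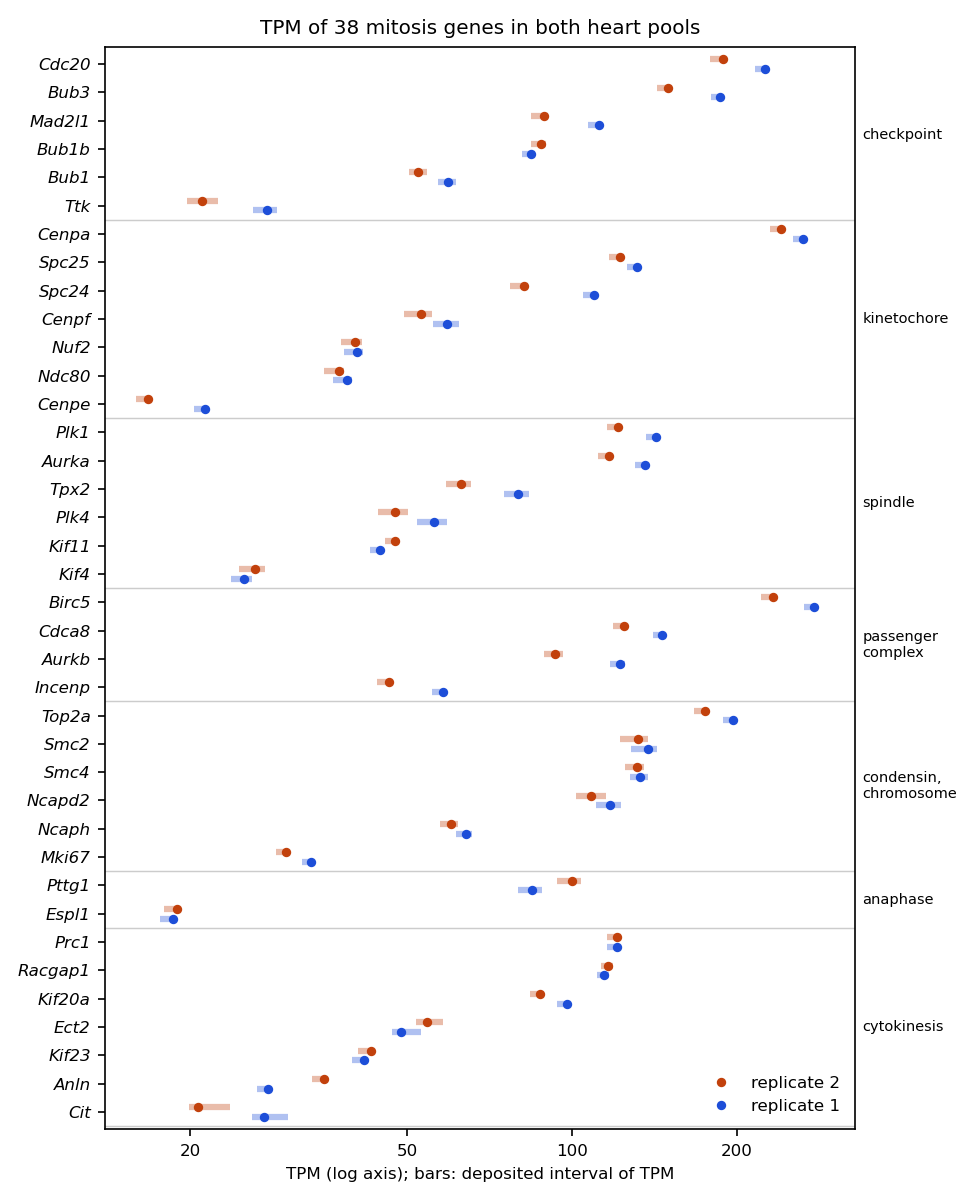
TPM of the 38 genes (log axis) by function, with replicate 2 above replicate 1 in each row; points are the deposited TPM and bars the deposited interval of TPM. Levels run from 18.8 TPM (Espl1, mean) to 255 TPM (Birc5, mean). The points of 28 of the 38 members lie to the left in replicate 2. Among them are all 4 passenger complex, all 7 kinetochore and all 6 condensin and chromosome genes. On this scale the median log2 ratio of all genes tested, replicate 2 over replicate 1, was −0.08. By TMM-scaled counts, 3 of 7 kinetochore and 2 of 6 condensin and chromosome genes were higher in replicate 2.

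Ordered by mean TPM, the members formed a gradual series: of 37 neighbouring pairs, 26 had pool values that overlapped and 11 did not. The steps without overlap lay after Cenpa, Bub3, Prc1, Bub1b and Ncaph in the upper part of the order, and after Ect2, Kif11, Kif23, Nuf2, Ndc80 and Anln in the lower part. Birc5 and Cenpa could not be ordered, because Birc5 was above Cenpa in replicate 1 and below it in replicate 2, and the same held at the other end for Cenpe above Espl1. The 10 genes from Cdca8 to Aurkb on this scale, between 108 and 135 TPM, held only 1 such step, after Prc1.

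Sequence letters of the promoters were also compared. Windows of 300 bases, from 250 before the start to 50 after it (RefSeq, GRCm38.p6), were matched for 32 of the 38 genes (all but Aurkb, Incenp, Spc24, Smc4, Tpx2 and Kif20a) in 35 windows. The cell cycle homology motif TTTGAA, the recognition sequence of the MuvB subunit Lin54, was searched on both strands and occurred in 26 of 35 windows (74.3%), against 17.9% of all 32851 RefSeq windows. CCAAT, the core letters of the NF-Y box, also searched on both strands, occurred in 26 of 35 windows (74.3%), against 37.4% of all windows. Both motifs stood in 68.6% of the members' windows and in 6.95% of all windows, and the motifs can share at most 1 base. Windows of 1 gene share most of their bases, and counted by gene 23 of 32 had TTTGAA (71.9%, against 20.2% of 27025 genes with a window) and 23 of 32 had CCAAT (71.9%, against 41.1%). The following 4 windows are shown because they belong to the most abundant members with a TTTGAA match, and they let the spacing of the motifs be read directly. Capitals mark TTTGAA or CCAAT, or their reverse complements, and each sequence is written 5′ to 3′ on the strand of the gene.
Cenpa: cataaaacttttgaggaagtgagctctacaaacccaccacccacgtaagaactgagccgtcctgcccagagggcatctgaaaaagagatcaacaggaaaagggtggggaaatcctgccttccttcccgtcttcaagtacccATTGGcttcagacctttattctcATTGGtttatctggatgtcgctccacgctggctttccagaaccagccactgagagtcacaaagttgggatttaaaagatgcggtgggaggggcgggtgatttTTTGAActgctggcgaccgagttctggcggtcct
Cdc20: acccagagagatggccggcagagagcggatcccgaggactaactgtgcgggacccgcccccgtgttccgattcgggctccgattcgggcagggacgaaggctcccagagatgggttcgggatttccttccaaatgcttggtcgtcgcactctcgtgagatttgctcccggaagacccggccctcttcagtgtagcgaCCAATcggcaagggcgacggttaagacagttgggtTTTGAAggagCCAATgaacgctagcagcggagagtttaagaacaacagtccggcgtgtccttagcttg
Top2a: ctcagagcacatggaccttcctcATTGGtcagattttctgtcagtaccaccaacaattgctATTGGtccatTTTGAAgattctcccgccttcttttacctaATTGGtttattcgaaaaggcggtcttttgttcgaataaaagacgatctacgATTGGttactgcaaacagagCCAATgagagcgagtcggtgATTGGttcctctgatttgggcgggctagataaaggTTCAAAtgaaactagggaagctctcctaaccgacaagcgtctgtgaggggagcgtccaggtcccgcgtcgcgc
Bub3: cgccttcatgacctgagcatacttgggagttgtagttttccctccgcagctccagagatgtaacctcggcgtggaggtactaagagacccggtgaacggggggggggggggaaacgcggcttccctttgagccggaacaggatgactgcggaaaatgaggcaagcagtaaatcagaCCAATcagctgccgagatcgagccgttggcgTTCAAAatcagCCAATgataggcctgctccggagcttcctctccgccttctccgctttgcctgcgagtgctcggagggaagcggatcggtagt
These windows lie at chr5:30666636-30666935 (plus strand, Cenpa), chr4:118437294-118437593 (minus strand, Cdc20), chr11:99024140-99024439 (minus strand, Top2a) and chr7:131560120-131560419 (plus strand, the first of 2 windows of Bub3). In Cenpa the TTTGAA match lies downstream of both CCAAT matches, and in Cdc20 and Bub3 it lies between them. Top2a holds 2 matches of TTTGAA and 6 of CCAAT. A match of letters is a description and not a bound site.

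The matches also had a preferred place. TTTGAA began in the first 50 bases after the start in 16 of 35 windows (45.7%), against 2.25% of all windows, and in the 50 bases before it in 20.0%, against 2.82%. In the 100 bases farthest upstream the members had matches in 0.0% and 5.71% of windows, by bins of 50 bases, against 4.07% and 3.97% of all windows. CCAAT in the members' windows began most often in the 50 bases before the start (48.6%, against 9.03% of all windows) and in the 50 bases upstream of those (37.1%, against 12.5%, the highest share among all windows). The median first base of a match was 3 for TTTGAA and −63.5 for CCAAT, counted from the start as base 1. Among other cell cycle genes, TTTGAA stood in 38.8% of the 116 windows of other mitosis genes. It stood in 16.7% of the 48 windows of DNA replication genes and in 22.2% of the 27 windows of G1/S genes. CCAAT stood in 57.8%, 52.1% and 44.4% of these windows, in the same order. Heart muscle genes had only 11 windows, from 8 genes, with CCAAT in 7 (63.6%) and TTTGAA in 1 (9.09%). Genes without TTTGAA in their window were Bub1, Mad2l1, Nuf2, Cenpe, Plk4, Birc5, Ncaph, Pttg1 and Cit, so Birc5, with the highest mean level, was among those without it.

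**Figure D2:**
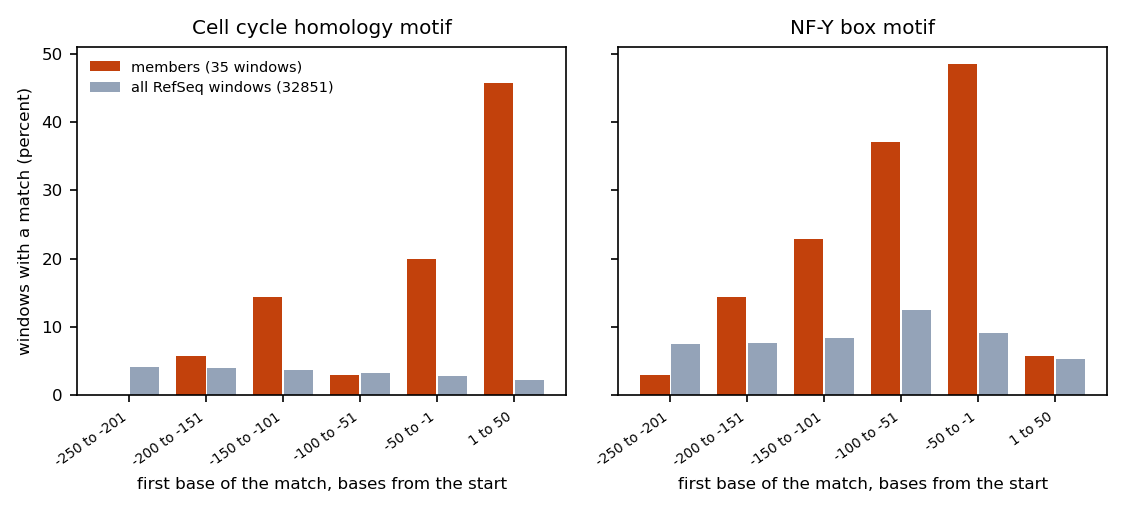
Percent of promoter windows with a match that begins in each stretch of 50 bases (x axis, bases from the RefSeq start), for the members (left bar, 35 windows) and all RefSeq windows (right bar, 32851 windows). The cell cycle homology motif reaches 45.7% of member windows just after the start, and the NF-Y box motif 48.6% just before it.

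The checkpoint genes hold anaphase back until every kinetochore is attached. Cdc20, which activates the anaphase-promoting complex and is the checkpoint's target, had 189 TPM in replicate 2 and 226 TPM in replicate 1. Bub3, the adaptor that brings the Bub kinases to kinetochores, had 149.6 TPM in replicate 2 and 186 TPM in replicate 1. Mad2l1 (Mad2), which binds and inhibits Cdc20, had 88.9 TPM in replicate 2 and 112 TPM in replicate 1. So RNA of the target was about 2-fold more abundant than RNA of its inhibitor, and protein was not measured. Mad2l1 stood at 0.470 of Cdc20 in replicate 2 and 0.497 in replicate 1. Bub1b (BubR1), a further inhibitor of Cdc20, had 87.8 TPM in replicate 2 and 84.2 TPM in replicate 1. Its paralog Bub1, a kinase that recruits checkpoint proteins, had 52.3 TPM in replicate 2 and 59.4 TPM in replicate 1. Ttk (Mps1), the kinase that starts the signal, was the lowest of the 6 with 21.1 TPM in replicate 2 and 27.7 TPM in replicate 1. Of the 6 genes, Bub1b alone was higher in replicate 2, and the deposited intervals of the pools were separate for the other 5. Of all protein-coding genes with a mean count of 1000 or more, 38.5% had separate intervals with higher TPM in replicate 1. The Bub3 gene lies wholly within the annotated span of Fgfr2 on the opposite strand, which had 1327 counts in replicate 2 and 3317 in replicate 1, against 8026 and 11096 for Bub3; strand use in counting was not given in the sources used here.

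The kinetochore genes held both the second highest and the second lowest mean level of all members. At the base of the kinetochore, Cenpa reached the level given above, with 7183 expected counts in replicate 2 and 8764 in replicate 1. At its outer face, Cenpe, a kinesin that moves chromosomes to the spindle equator, had 16.8 TPM in replicate 2 and 21.3 TPM in replicate 1. Cenpf, a large coiled-coil protein of the same fibrous corona, had 52.9 TPM in replicate 2 and 59.1 TPM in replicate 1. Between them stands the NDC80 complex, a rod of 4 subunits that grips microtubules. Its inner subunits, which face the chromosome, were the more abundant, Spc25 with 122 TPM in replicate 2 and 132 TPM in replicate 1, and Spc24 with 81.7 TPM in replicate 2 and 109.9 TPM in replicate 1. Its outer subunits were lower, Nuf2 with 40.1 TPM in replicate 2 and 40.4 TPM in replicate 1, and Ndc80 with 37.5 TPM in replicate 2 and 38.8 TPM in replicate 1. Spc25 exceeded Nuf2 by 3.05-fold in replicate 2 and 3.26-fold in replicate 1. RNA of the subunits of a single complex therefore did not stand at 1 level, whereas the outer pair, Nuf2 over Ndc80, stood at 1.07 and 1.04 in replicates 2 and 1 and had overlapping intervals in both.

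Among the spindle genes, the kinases Plk1 and Aurka were the most abundant. Plk1, the polo-like kinase of mitotic entry and spindle assembly, had 121 TPM in replicate 2 and 142 TPM in replicate 1. Its relative Plk4, which starts centriole duplication, had 47.5 TPM in replicate 2 and 56.0 TPM in replicate 1. Plk1 relative to Plk4 stood at 2.55 in replicate 2 and 2.54 in replicate 1, the smallest difference between pools of the 22 partner ratios. Aurka, the centrosomal Aurora kinase, had 117 TPM in replicate 2 and 136 TPM in replicate 1, and Tpx2, which activates it on the spindle, had 62.8 TPM in replicate 2 and 79.7 TPM in replicate 1. Of the motors, Kif11 (Eg5), which pushes the poles apart, had 47.5 TPM in replicate 2 and 44.6 TPM in replicate 1, and Kif4, a motor of chromosome arms and the central spindle, had 26.3 TPM in replicate 2 and 25.1 TPM in replicate 1. They were on the higher side in replicate 2, with separate intervals for Kif11 and overlapping ones for Kif4.

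The chromosomal passenger complex corrects wrong attachments at centromeres and later moves to the central spindle. Birc5, at the values given above, and Cdca8 (borealin), with 124 TPM in replicate 2 and 146 TPM in replicate 1, place the complex on centromeres. Aurkb, its kinase, had 93.1 TPM in replicate 2 and 122 TPM in replicate 1. Incenp, the scaffold that binds all of them and activates the kinase, was the least abundant with 46.3 TPM in replicate 2 and 58.1 TPM in replicate 1. Birc5 stood 5.03-fold above Incenp in replicate 2 and 4.78-fold in replicate 1, and 1.87-fold above Cdca8 in replicate 2 and 1.90-fold in replicate 1. All 4 genes had lower TPM in replicate 2, each with separate intervals. The same held for 38.5% of the protein-coding genes with a mean count of 1000 or more.

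Of the genes of chromosome structure, Top2a, the topoisomerase that untangles sister DNA, led with 175 TPM in replicate 2 and 197 TPM in replicate 1, and it also had the most counts of all members (16734 in replicate 2 and 19653 in replicate 1). The ATPases shared by both condensins followed, Smc2 with 132 TPM in replicate 2 and 138 TPM in replicate 1, and Smc4 with 132 TPM in replicate 2 and 133 TPM in replicate 1. Of the condensin I subunits, Ncapd2 had 108 TPM in replicate 2 and 117 TPM in replicate 1, and Ncaph, the subunit that closes the ring, had 60.1 TPM in replicate 2 and 64.0 TPM in replicate 1. Intervals of the pools overlapped for these 4 condensin genes, and for 2768 of 7508 protein-coding genes with a mean count of 1000 or more. Mki67, the proliferation antigen that coats mitotic chromosomes, had 30.0 TPM in replicate 2 and 33.4 TPM in replicate 1. Its transcript is among the longest, at 10075 nt, so that this low TPM rested on 8202 counts in replicate 2 and 10128 in replicate 1.

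At anaphase onset, securin (Pttg1) is destroyed to free separase (Espl1). Pttg1 had 100.1 TPM in replicate 2 and 84.4 TPM in replicate 1, on the low counts of 1772 in replicate 2 and 1659 in replicate 1, because its main transcript has 741 nt. RNA of the inhibitor thus stood 5.29-fold above RNA of its protease in replicate 2 and 4.54-fold in replicate 1. By expected counts the order of the pair turned round, at 0.523 in replicate 2 and 0.449 in replicate 1, since the Espl1 transcript has 6630 nt.

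The cytokinesis genes were led by Prc1, which bundles the microtubules of the central spindle, with 121 TPM in both replicates. Racgap1, a subunit of centralspindlin, had 117 TPM in replicate 2 and 114 TPM in replicate 1. Kif23, the motor subunit of the same complex, had only 42.8 TPM in replicate 2 and 41.6 TPM in replicate 1, a ratio to Racgap1 of 0.367 in replicate 2 and 0.363 in replicate 1. Ect2, which centralspindlin brings to the site of the furrow, had 54.3 TPM in replicate 2 and 48.7 TPM in replicate 1. Kif20a, a central spindle motor that carries the passenger complex, had 87.4 TPM in replicate 2 and 97.8 TPM in replicate 1. It overlaps the gene Cdc23 on the opposite strand over 2327 bases, and Cdc23 had counts of a like size, 8479 in replicate 2 and 9772 in replicate 1, against 8308 and 10310 for Kif20a. The scaffolds of the ring and midbody were the lowest: Anln (anillin), which ties actin, myosin and septins together, had 35.1 TPM in replicate 2 and 27.8 TPM in replicate 1, and Cit (citron kinase), which keeps the midbody in order, had 20.7 TPM in replicate 2 and 27.3 TPM in replicate 1. Anln and Cit were close to each other in replicate 1 and stood apart in replicate 2, where their intervals were separate.

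Between the pools the members differed little. The library ratio is the log2 ratio of TMM-scaled expected counts, replicate 2 over replicate 1, where TMM sets the bulk of genes to a ratio near 0. Its median over the 38 members was −0.06, with an SD of 0.18 and a range of −0.34 (Aurkb) to 0.44 (Anln), against a median of 0.04 and an SD of 0.40 over the 7508 protein-coding genes with a mean count of 1000 or more. The cut of 1000 counts was chosen after the data were seen, so that the background has counts like those of the members. Of the members 0 were higher in replicate 2 by 1.5-fold or more, where 10.9% of all 17547 genes with a mean count of 10 or more and 7.37% of the protein-coding genes of 1000 counts were. Likewise 0 members were higher in replicate 1 by 1.5-fold or more, against 14.5% and 2.45%. A library ratio within 0.32 of 0 on the log2 scale was found for 34 of the 38 members, and for 71.4% of the protein-coding genes of 1000 counts. The 4 outside were Anln (chromosome 9, 22332012 to 22389188; 5130 counts in replicate 2 and 4506 in replicate 1) and Pttg1, higher in replicate 2, and Aurkb (chromosome 11, 69045647 to 69051664; 4067 counts in replicate 2 and 6106 in replicate 1) and Spc24, higher in replicate 1.

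Of the members 15 were higher in replicate 2 and 23 in replicate 1, where 49.7% of all genes tested and 56.4% of the protein-coding genes of 1000 counts were higher in replicate 2. The cytokinesis genes had a median library ratio of 0.14, with 5 of 7 higher in replicate 2 (Anln, Ect2, Racgap1, Kif23 and Prc1), and both anaphase genes were higher in replicate 2. The passenger genes had a median of −0.19 with 0 of 4 higher in replicate 2, and the checkpoint genes a median of −0.19 with 1 of 6. The kinetochore genes had 3 of 7 higher in replicate 2, the spindle genes 2 of 6 and the condensin and chromosome genes 2 of 6. Each function holds 2 to 7 genes, and the difference between functions was not tested. Scaling by the summed ERCC counts moved the median of all genes to 0.32 and placed 36 of 38 members higher in replicate 2, so these sides are relative to the bulk of genes. By the deposited intervals, 3 members were separate and higher in replicate 2 (Kif11, Pttg1 and Anln), against 15.9% of all genes tested and 24.7% of the protein-coding genes of 1000 counts. Separate and higher in replicate 1 were 22 members, against 29.2% and 38.5%, and 13 overlapped. The intervals are on the TPM scale, where 10 members were higher in replicate 2 and 28 in replicate 1, and where the median log2 ratio of all genes tested was −0.08.

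**Figure D3:**
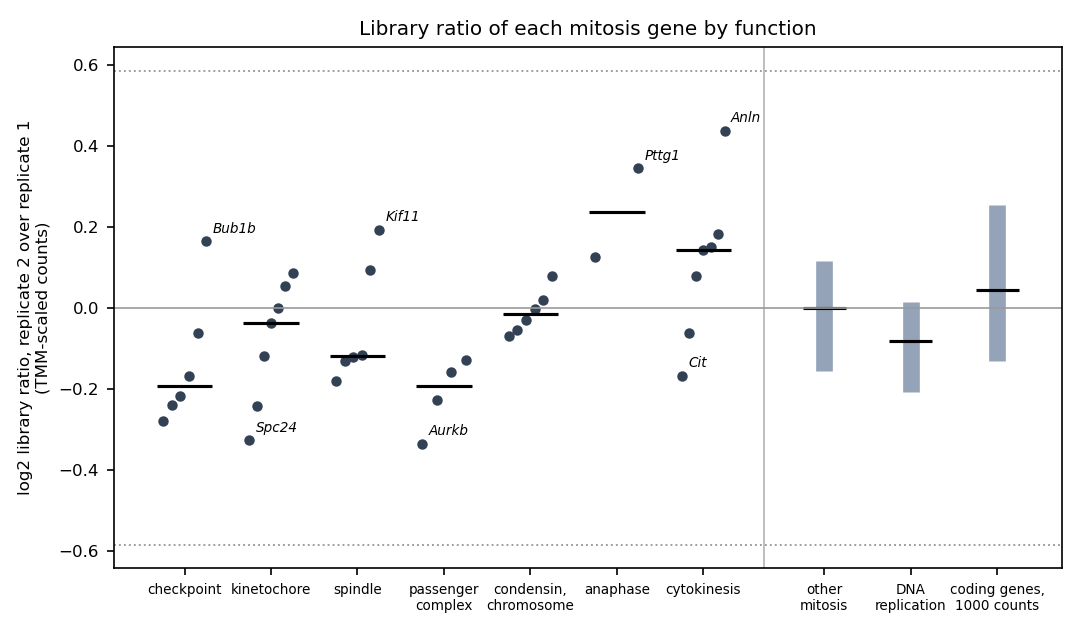
Log2 library ratio (TMM-scaled counts, replicate 2 over replicate 1) of each member by function; short lines are medians and dotted lines mark 1.5-fold. On the right, grey bars span the middle quartiles and lines the medians of 126 other mitosis genes, 48 DNA replication genes and 7508 protein-coding genes with 1000 counts or more; all members lie within the dotted lines.

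Markers of liver and foregut moved far more between the pools than the members did. The 10 liver genes summed to 55.1 TPM in replicate 2 and 1370 TPM in replicate 1, with 10 of 10 higher in replicate 1 and 2 of 10 below 1 TPM in a pool; Afp, a plasma protein of fetal liver, led with 27.6 TPM in replicate 2 and 737 TPM in replicate 1. Likewise, 8 foregut genes summed to 87.6 TPM in replicate 2 and 231 TPM in replicate 1, with 8 of 8 higher in replicate 1 and 5 of 8 below 1 TPM in a pool, led by Krt8 with 76.6 TPM in replicate 2 and 175 TPM in replicate 1. Heart muscle genes, 10 in all, summed to 29018 TPM in replicate 2 and 18264 TPM in replicate 1, with 10 of 10 higher in replicate 2. Endothelial genes summed to 554 TPM in replicate 2 and 477 TPM in replicate 1 (7 of 8 higher in replicate 2, led by Plvap and Egfl7), and red cell genes to 51352 TPM in replicate 2 and 40349 TPM in replicate 1 (10 of 10 higher in replicate 2, led by Hbb-y and Hba-a2). Macrophage genes summed to 61.1 TPM in replicate 2 and 43.0 TPM in replicate 1, most of it Lyz2, which was higher in replicate 2, while the other 5 of 6 were higher in replicate 1. Neural tube genes, led by Tubb3, summed to 10.9 TPM in replicate 2 and 18.2 TPM in replicate 1, with 4 of 5 tested higher in replicate 1 and Sox1 listed at 0 in replicate 2. Only 2 of 6 neural tube genes and 4 of 6 macrophage genes reached 1 TPM in both pools. The part of these tissues in the ratios of the mitosis genes was not tested.

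Most partner genes stood in the same order in both pools. Of 22 pairs of members that are paralogs or work in the same complex or structure, 19 had separate TPM intervals with the same order in both pools. The exceptions were Nuf2 over Ndc80, Smc2 over Smc4 (1.00-fold in replicate 2 and 1.03-fold in replicate 1) and Anln over Cit (1.70-fold in replicate 2 and 1.02-fold in replicate 1). Aurka stood above Aurkb by a log2 ratio of 0.33 in replicate 2 and 0.15 in replicate 1, and Bub1b above Bub1 by 1.68-fold in replicate 2 and 1.42-fold in replicate 1. The widest ratios were those of Birc5 over Incenp and Pttg1 over Espl1. The log2 ratio of a pair differed most between pools for Anln over Cit, at 0.77 in replicate 2 and 0.03 in replicate 1. Next came Bub3 over Bub1b, at 1.70-fold in replicate 2 and 2.21-fold in replicate 1, and Spc24 over Spc25, at 0.668 in replicate 2 and 0.836 in replicate 1.

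**Figure D4:**
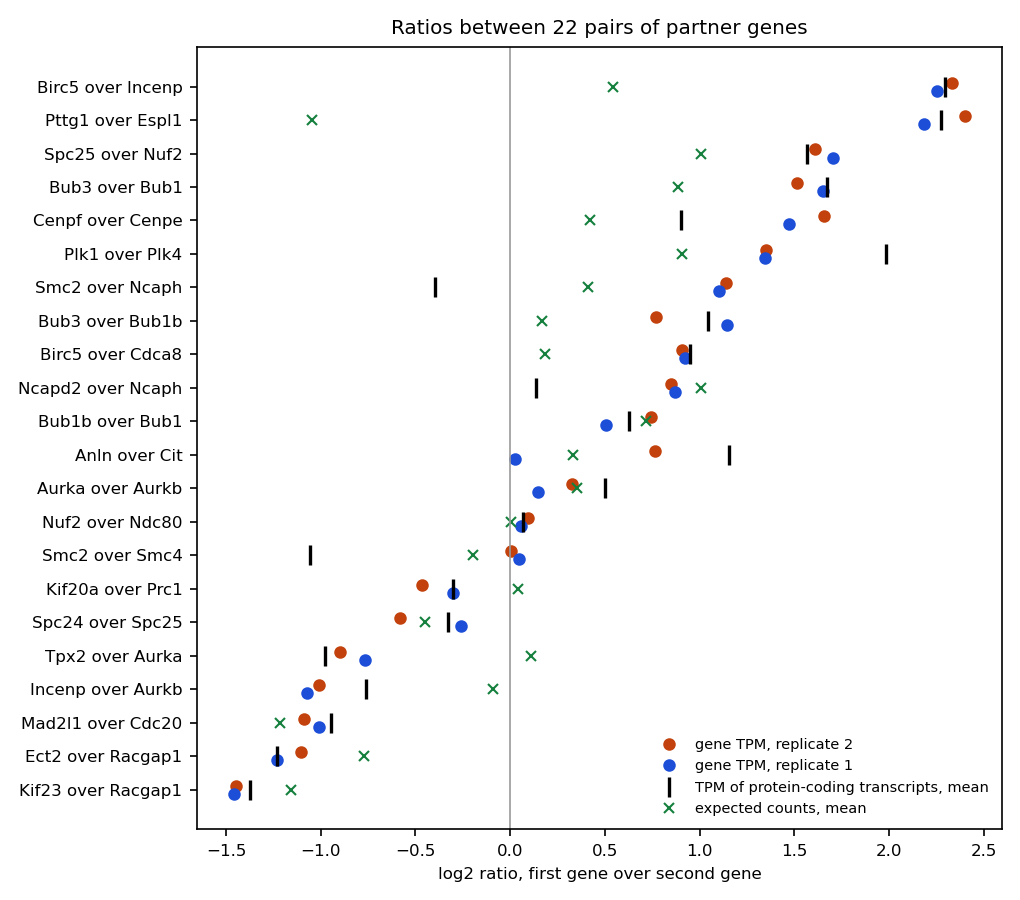
Log2 ratio of 22 partner pairs, first gene over second, by gene TPM in replicate 2 (upper point) and replicate 1 (lower point), by TPM of protein-coding transcripts (tick, mean of both pools) and by expected counts (cross, mean). Most points of the pools nearly coincide, while the ticks of Smc2 over Smc4 and Smc2 over Ncaph lie on the negative side.

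The transcript tables showed which of these orders rest on short or noncoding transcripts. The 38 genes had 210 transcripts in the tables. A single transcript held over 50% of the gene's TPM in both pools for 30 members, and the same transcript led in both pools for 37. The exception was Kif20a, whose 2 coding transcripts of 3565 and 3567 nt differ little: Kif20a-202 held 55.7% of its TPM in replicate 2, and Kif20a-201 held 54.8% in replicate 1. Transcripts annotated as protein-coding held a median of 94.5% of a member's TPM and over 90% in 26 members. In 2 members they held less than 50%, Cenpa and Smc2. In Top2a the coding share averaged 60.1%, or 110 TPM in replicate 2 and 114 TPM in replicate 1. In Ncapd2 it averaged 56.5%, or 64.8 TPM in replicate 2 and 62.5 TPM in replicate 1. In Plk4, 6 transcripts with 34.2% of its TPM in replicate 2 and 37.2% in replicate 1 had no type in the annotation used and were counted as not coding.

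For Cenpa, the leading transcript was Cenpa-202, annotated as a target of nonsense-mediated decay, with 47.9% of the gene's TPM in replicate 2 and 46.5% in replicate 1. The coding Cenpa-205 held 32.9% in replicate 2 and 35.9% in replicate 1. The coding transcripts of Cenpa thus came to 81.5 TPM in replicate 2 and 99.3 TPM in replicate 1, well below the gene's total and below Birc5, whose coding share was 100%. For Smc2, the 643 nt processed transcript Smc2-203 held 60.4% of TPM in replicate 2 and 57.3% in replicate 1, but only 22.6% of the gene's expected counts in replicate 2 and 19.8% in replicate 1. The full-length Smc2-201, at 5404 nt, held 58.0% of the counts in replicate 2 and 61.1% in replicate 1. With coding transcripts alone Smc2 had 40.8 TPM in replicate 2 and 47.4 TPM in replicate 1, against 88.3 TPM and 94.9 TPM for Smc4. The near equality of these partners at the gene level thus became a log2 ratio of −1.06 ± 0.08 (SD, n = 2). That ratio itself rests on a short Smc4 transcript, the coding Smc4-206 of 1163 nt. It held 57.8% of the gene's TPM in replicate 2 and 62.0% in replicate 1, of 67.1% and 71.3% for all coding transcripts. Smc2 over Ncaph also turned, from a log2 ratio of 1.12 ± 0.02 at the gene level to −0.39 ± 0.08 with coding transcripts. The other 20 pairs kept their sign in the mean of both pools, but 4 of them also moved by over 1.5-fold. Coding transcripts were judged without intervals, by a ratio of 1.1-fold or more in both pools, a cut chosen after seeing the data. By this cut Ncapd2 over Ncaph was not apart, at a log2 ratio of 0.22 in replicate 2 and 0.06 in replicate 1. Anln over Cit was apart by it, at log2 ratios of 1.56 in replicate 2 and 0.75 in replicate 1. Cenpf over Cenpe came to a mean of 0.90 and Plk1 over Plk4 to 1.99. The sign of Cenpf over Cenpe rests on a short coding transcript, Cenpf-203 of 3001 nt. In replicates 2 and 1, the coding Cenpf-204 of 11130 nt had only 8.92 and 10.7 TPM, below Cenpe at 16.8 and 21.3.

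Short transcripts also led in Smc4 and Cenpf. In Smc4 the coding Smc4-206, of 1163 nt, held 57.8% of TPM in replicate 2 and 62.0% in replicate 1, while by counts Smc4-207, a decay target of 4057 nt, led with 36.9% in replicate 2 and 40.5% in replicate 1. In Cenpf, Cenpf-203 of 3001 nt led by TPM with 45.6% in replicate 2 and 45.7% in replicate 1, and the 11130 nt Cenpf-204 led by counts with 54.4% in replicate 2 and 56.2% in replicate 1. In Cit, the full-length Cit-201 of 9514 nt held 51.5% of TPM in replicate 2 and 46.9% in replicate 1, but 83.3% and 83.2% of the counts. Reads of 1 gene are divided among its transcripts by the estimate behind the tables, so these shares depend on the annotation used.

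**Figure D5:**
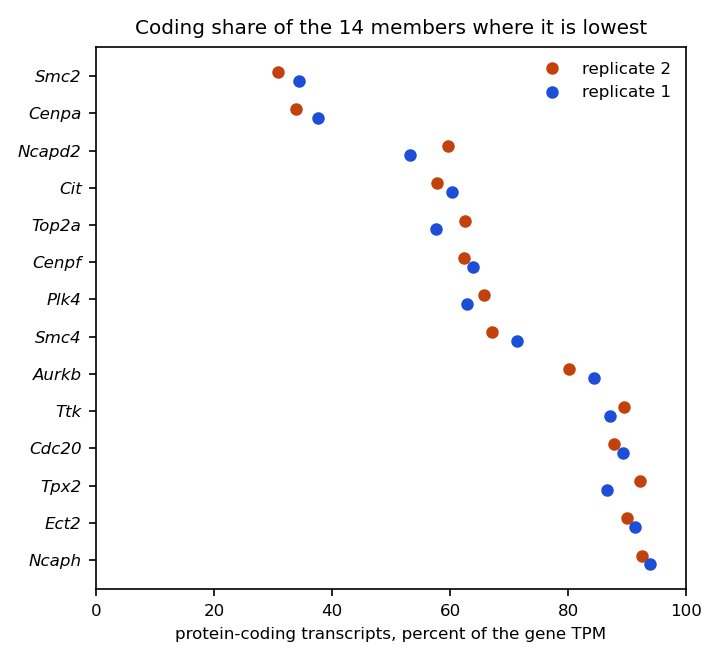
Share of each gene's TPM held by transcripts annotated as protein-coding, for the 14 members where the mean share is lowest, in replicate 2 (upper point) and replicate 1 (lower point); transcripts without a type, all of Plk4, count as not coding. Smc2 and Cenpa lie below 50% in both pools, and the pools lie close together for every gene shown.

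Genes that work beside the members were detected as widely. Of 126 other genes of mitosis, 126 reached 1 TPM in both pools, and their median library ratio was −0.00, with 63 on each side, 0 higher in replicate 2 by 1.5-fold and 1 higher in replicate 1 by that much. Their most abundant genes were Cks1b (a subunit of Cdk complexes; 394 TPM in replicate 2 and 490 TPM in replicate 1), Ube2c and Ube2s (conjugating enzymes of the anaphase-promoting complex) and Cdk1 (the mitotic kinase; 347 TPM in replicate 2 and 385 TPM in replicate 1). Lowest were Kifc1, Kif14, Cep152 and Depdc1b, at mean levels between 3.69 and 6.88 TPM. Depdc1b, Kif18b and Wapl had the largest ratios toward replicate 1, from −0.51 to −0.59, and Lin54, Cdc25b and Kifc1 the largest toward replicate 2, from 0.43 to 0.52. By function, 3 of 9 checkpoint, 10 of 28 kinetochore, 22 of 31 spindle and 1 of 2 passenger genes were higher in replicate 2. So were 5 of 15 condensin and chromosome, 15 of 30 anaphase and 7 of 11 cytokinesis genes. The functions of this list were broadly drawn. Its anaphase genes include Cdk1, Cdc25b and Lin54, and its passenger genes are not subunits of the passenger complex. For members, 1 of 6 checkpoint, 3 of 7 kinetochore, 2 of 6 spindle and 0 of 4 passenger genes were higher in replicate 2. Higher there were also 2 of 6 condensin and chromosome, 2 of 2 anaphase and 5 of 7 cytokinesis genes. The shares of both lists were thus alike for some functions, such as condensin and chromosome, and unlike for others, such as spindle. The 48 DNA replication genes, led by Rrm2 and Pcna, were all detected, with a median ratio of −0.08, and 15 were higher in replicate 2. Their median TPM was 76.8, beside 89.1 for the members and 32.4 for the 126 other mitosis genes. Of 27 G1/S genes, led by Cdk4 and Cdkn1c, 26 were detected, with a median ratio of 0.03; Cdkn2a, an inhibitor of the cycle, was listed at 0 in both pools.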

How the data were processed

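Heart RNA of mouse embryos was measured in 2 pooled libraries that form 1 group. For each library the authors deposited gene and transcript tables. Per the file headers these hold an expected count (estimated, not normalised), a posterior mean count, TPM and FPKM, with the bounds of an interval of TPM and of FPKM; the deposited bounds are treated as a score and belong to the posterior mean, so they need not contain the TPM. The deposited transcript tables also give each transcript's percent of its gene's TPM. Per the deposited description, reads were set against mm10 with annotation release M4; the quantifying program and strand use were not given in the sources used here.

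Gene and transcript names, types and positions were looked up in GENCODE M21, whose build GRCm38 equals mm10, and 42462 of 43346 Ensembl genes matched. Promoter windows came from RefSeq (GRCm38.p6). For 31 members the expected counts were whole numbers (within 0.005) in both pools; for 7 (Cdc20, Plk1, Plk4, Kif11, Kif4, Top2a, Kif20a) they were not. Another annotated gene overlapped 21 members, so their counts are uncertain. Where listed, the counts of the overlapping gene ran from 0 in both pools to 8479 in replicate 2 and 9772 in replicate 1 (Cdc23).

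Members, gene lists, pairs and motifs were chosen with earlier results of these data known. Named genes followed a rule: every member, the 4 highest, 4 lowest and 3 most unequal of the other mitosis genes in each direction, the 2 most abundant genes of each further list, and list genes at 0. Library ratios are log2 of TMM-scaled expected counts (edgeR 4.0.16, R 4.3.3), replicate 2 over replicate 1, using 0.5 as prior count and a mean count of 10 or more; the log2 ratio of TPM used TPM + 1. Percentiles and shares refer to nuclear protein-coding genes. With 1 group of 2 pools there is no comparison of conditions and no p-value was computed. Alternatives were DESeq2 1.42.0 size factors, TPM, ERCC scaling, posterior means, other minimums, priors and thresholds, length bins, FPKM and each pool alone. The ratio code was tested on simulated data. Python 3.11.15, numpy 2.4.6, pandas 2.3.3, scipy 1.17.1 and matplotlib 3.10.9 were used. Expected counts were 41070978 (replicate 2) and 45205713 (replicate 1), of which ERCC took 3.13% and 4.22%; at counts of 1498 or more per member counting error is small, but with no molecular identifiers reads need not be separate molecules, so intervals cover the error of the estimate only.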

Additional observations from a re-analysis of the deposited data

How the results depend on the processing

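All 38 members and at least 111 of the 126 other mitosis genes were detected at 0.1, 5 and 10 TPM and in each pool alone. The TPM share of the members was 0.402% to 0.456% with a pool left out, and 0.582% by expected counts, which weight long genes. Under ERCC scaling the median library ratio of the members was 0.26, with 36 members higher in replicate 2 and 2 past 1.5-fold; the median of all genes moved to 0.32 in the same step. By deposited TPM the median was −0.15 (TPM + 1) or −0.16 (TPM + 0.1) and 5 members changed side. At a threshold of 0.32 on the log2 scale, 4 members were past it, and at 2-fold 0. DESeq2 size factors, posterior mean counts, other priors and count minimums and length bins left the median between −0.08 and −0.05 and 13 to 15 members higher in replicate 2. Separate intervals numbered 25 by TPM and by FPKM. Partner pairs separated numbered 19 to 20 with a pool left out, 17 by counts and 20 by coding transcripts at 1.1-fold or more, a setting chosen after seeing the data. Of the pairs, 4 changed sign by counts (Smc2 over Smc4, Kif20a over Prc1, Tpx2 over Aurka, Pttg1 over Espl1). Leading transcripts over 50% numbered 32 by counts, and 20 at over 80%. Ratios between pools cannot be computed with a pool left out. No paired analysis was possible because there is 1 group. The limits are the number of pools, the unequal levels of liver, foregut and heart muscle markers in them, shared or divided reads, and length estimates where transcripts of unlike length coexist.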
